A study of Mus musculus with 22 samples.

Results

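Chemokines are small secreted proteins that direct the movement of white blood cells, and their receptors sit on the cells that respond. The genes described here are 33 members of this system, 23 ligands and 10 receptors, chosen by name from the mouse gene list and found among 52636 genes in every library. No measured value was used as a filter for the members, but they were chosen with earlier results of these data known. The question was which of the sampled cells and tissues held the transcripts of each ligand, and which held those of its receptor.

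Most chemokines act through receptors coupled to G proteins, and one receptor often answers to several ligands. Ccr2 draws monocytes out of the blood towards Ccl2, Ccl7 and Ccl12, Ccr3 draws eosinophils towards the eotaxins Ccl11 and Ccl24, and Cxcr3 draws activated T cells towards Cxcl9 and Cxcl10. Atypical receptors such as Ackr3 bind a chemokine without the usual signalling and remove it. Macrophages are both a source and a target of chemokines, and the renal capsule is the thin fibrous sheath around the kidney in which resident macrophages lie beside fibroblasts and fat.

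Bulk RNA sequencing covered 22 untreated mouse libraries in 6 groups. Whole renal capsule came from young mice (3 libraries) and aged mice (3 libraries), macrophages were sorted from the renal capsule (4 libraries) and from the kidney (4 libraries), and libraries titled RCAMs came from young mice (4 libraries) and aged mice (4 libraries). The labels give no strain, age in months or sex, and no age class for the capsule and kidney macrophages, and they do not state that replicates were separate animals, so p-values measure the spread between these libraries, which may be technical. What RCAM stands for is not written in the labels, which enter whole tissue as its cell type, while the design text says that dissected capsules were either sequenced whole or sorted for macrophages.

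Total counts per library, in units of 1000000 counts, were 20.6 to 22.2 in young capsule, the shallowest group, and up to 54.4 in young RCAM, the deepest. Levels are given as CPM, the counts of a gene per 1000000 counts of its library. The RCAM libraries carried macrophage transcripts at the level of sorted macrophages: a list of 15 macrophage genes summed to 41414 to 44166 CPM in young RCAM, 40958 to 45853 in aged RCAM and 37936 to 42096 in capsule macrophages, against 2311 to 4548 in young and 4752 to 11277 in aged capsule. They are therefore grouped below with the sorted libraries, which makes 16 sorted and 6 tissue libraries. The labels describe a stranded kit for regular input and a SMART-Seq kit for low input without saying which library had which, so kit and cell content cannot be told apart between tissue and sorted libraries.

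One property of the counts limits 6 of the 33 members and comes before the results. Ccl2, Ccl6, Cxcl10 and Cxcr6 had 0 counts in all 16 sorted libraries, although all 6 tissue libraries held them, Ccl6 at 132 to 336 CPM in young and 282 to 732 CPM in aged capsule. Each of these 4 genes has 100% of its exon bases inside an annotated gene on the opposite strand: Ccl2 inside Gm17268, Ccl6 inside E230016K23Rik, Cxcl10 inside Art3 and Cxcr6 inside Fyco1. The same held across the genome. Of genes that averaged at least 5 CPM in tissue, 269 of 323 (83.3%) with every exon base inside an opposite-strand gene were at 0 in all 16 sorted libraries, against 5 of 7103 (0.0704%) with no such base, and in the other direction 0 of 41 fully covered genes with at least 5 CPM in sorted libraries were at 0 in all tissue libraries. The 4 zeros are therefore given as counts only, with no fold change and no reading as absent expression, and the part of the counting method in them was not tested. Cxcl16 (18.3% of exon bases covered) and Ccr9 (90.8%) are covered in part, and the other 27 members have no such base.

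**Figure D1:**
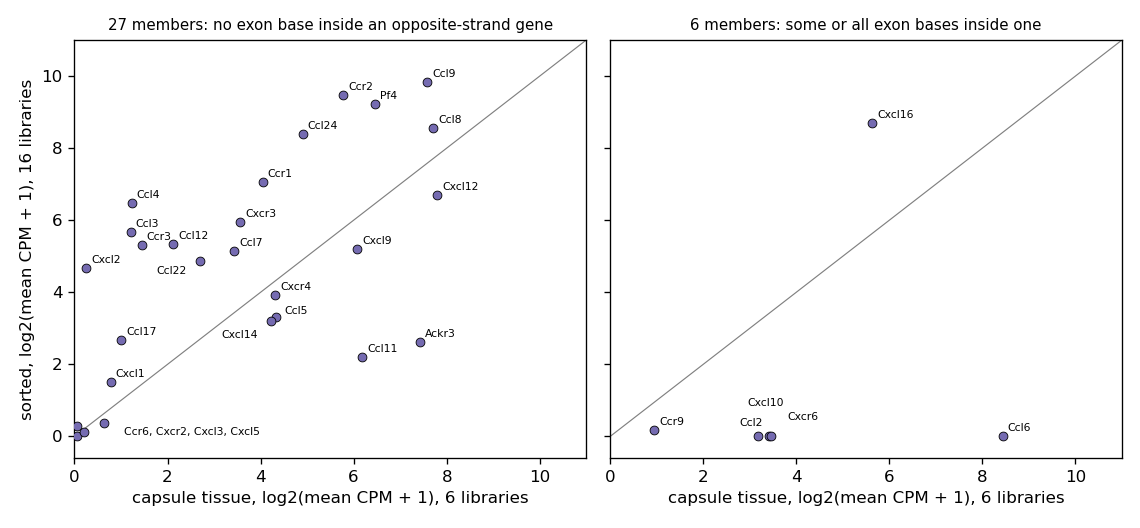
Mean level of each member over the 6 capsule tissue libraries (x axis) and the 16 sorted libraries (y axis), both as log2(mean CPM + 1), with the line of equal levels. On the right, Ccl2, Ccl6, Cxcl10 and Cxcr6 lie at 0 in the sorted libraries, while on the left the members without opposite-strand overlap spread on both sides of the line.

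Ccl2, Ccl6 and Cxcl10 cannot be ranked in the sorted libraries, and among the other ligands the highest levels in RCAM and capsule macrophages were those of 4 genes. Per kilobase of exon, mean levels in young RCAM were 1049 CPM per kb for Pf4 (also Cxcl4, a CXC chemokine best known from platelet granules), 912 for Ccl8 (a ligand of Ccr8 in the mouse), 432 for Ccl24 and 379.7 for Ccl9 (a ligand of Ccr1). Capsule macrophages held the same 4 on top, with Pf4 at 1274, Ccl8 at 549.8, Ccl9 at 427 and Ccl24 at 388 CPM per kb. In kidney macrophages the order differed: Ccl4 stood at 383, Cxcl16 at 353 and Ccl3 at 191 CPM per kb, while Ccl24 was at 0.989. Young capsule tissue was led by Ccl6 at 131, Ccl8 at 127 and Pf4 at 112 CPM per kb, and the place of Ccl6 in the sorted cells is not known.

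Among receptors other than Cxcr6, which cannot be ranked in the sorted libraries, Ccr2 led in young RCAM at 91.5 CPM per kb. It was followed by Ccr1 at 61.5, Cxcr3 at 43.4 and Ccr3 at 14.1. Kidney macrophages held Ccr2 at 170.0, Cxcr4 at 19, Cxcr3 at 18.1 and Ccr1 at 16.3 CPM per kb. Capsule tissue differed from all sorted groups in its leading receptor, which was Ackr3 at 54.1 CPM per kb in young and 48.1 in aged capsule, against no more than 3.25 in any sorted group. At the low end, Cxcl3, Cxcl5, Cxcr2, Ccr6 and Ccr9 did not reach 2 CPM in any of the 22 libraries, and Cxcl5 had 0 counts in 17 of them. Cxcr2 is the receptor through which Cxcl1, Cxcl2, Cxcl3 and Cxcl5 draw neutrophils.

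**Figure D2:**
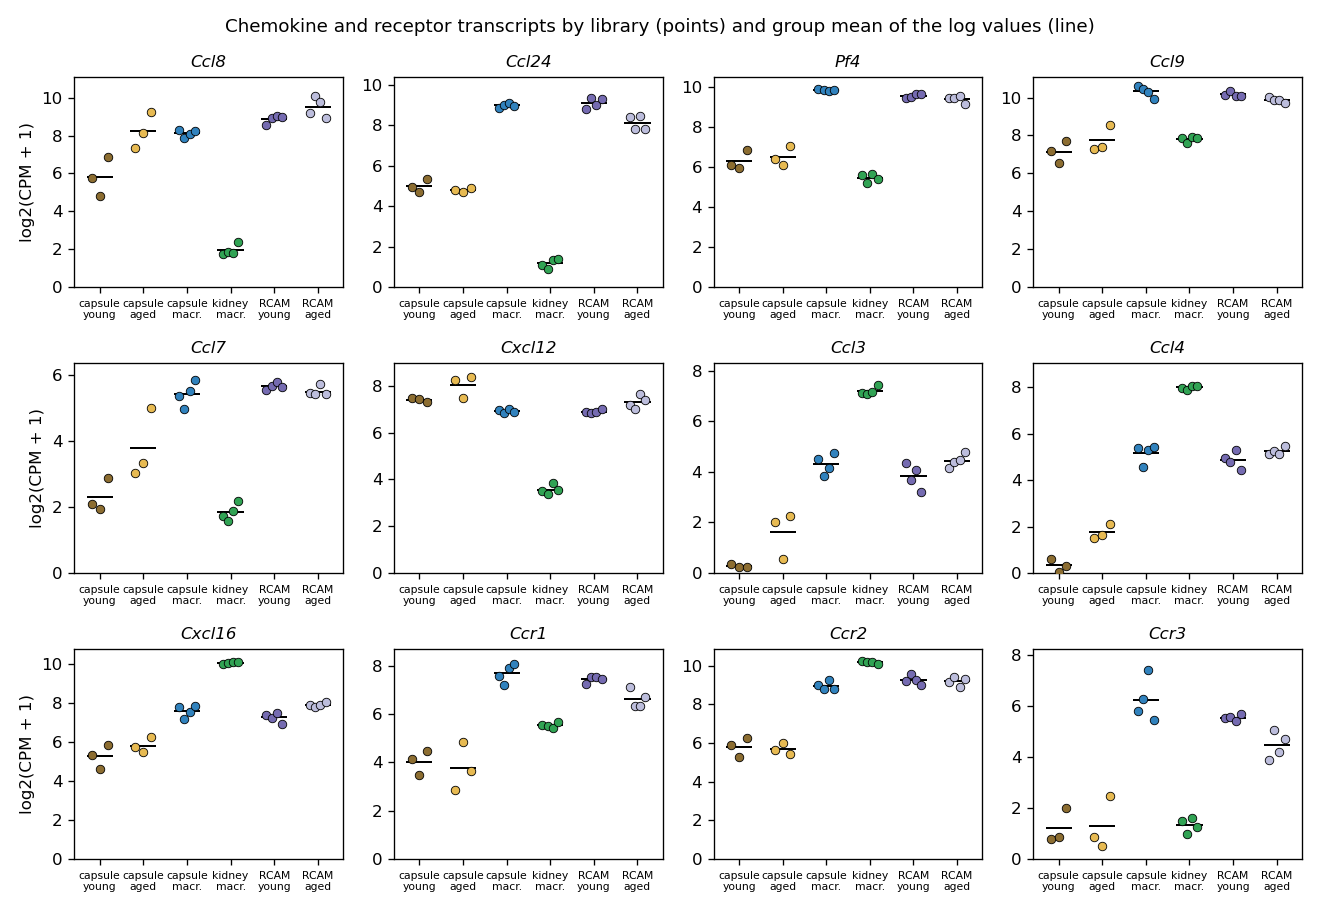
Levels of 12 members as log2(CPM + 1) in the 6 groups, with 1 point per library and a line at the mean of the log values. Ccl8, Ccl24, Pf4, Ccl7, Cxcl12 and Ccr3 lie far lower in kidney macrophages than in capsule macrophages, and Ccl3, Ccl4, Cxcl16 and Ccr2 lie higher.

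Capsule and kidney macrophages differed in most of the chemokine genes they held. Of 33 members, 25 passed the filter on low counts, 14 were higher in capsule macrophages and 6 were higher in kidney macrophages at an adjusted p under 0.05 (edgeR's quasi-likelihood test, Benjamini-Hochberg over all genes). Of all 15701 genes tested, 55.4% were called, 27.3% higher and 28.2% lower in the capsule. The members' median log2 fold change was 0.82, against -0.03 for all genes tested. Ligands gave 11 higher and 4 lower of 18 tested, and receptors 3 higher and 2 lower of 7.

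The eotaxin Ccl24 showed the widest gap. It measured 462, 509, 541 and 500.0 CPM in the 4 capsule macrophage libraries and 1.12, 0.881, 1.54 and 1.58 CPM in the 4 kidney macrophage libraries. The ranges were far apart, and the log2 fold change was 8.83 (SE 0.18, adjusted p = 2.7e-10). Its receptor Ccr3 measured 55.5, 76.1, 169 and 42.4 CPM in capsule macrophages and 1.79, 0.997, 2.04 and 1.40 CPM in kidney macrophages. Capsule replicate 3 was the highest of these libraries, the groups did not overlap, and the log2 fold change was 6.0 (SE 0.48, adjusted p = 2.8e-06). Ligand and receptor were thus both high in the capsule libraries and both low in the kidney libraries.

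Ccr3 is the defining receptor of eosinophils, and part of the eosinophil list moved with it. Siglecf measured 26.8, 26.3, 47.8 and 18.3 CPM in capsule macrophages, with Il5ra at 4.23, 4.88, 15.6 and 2.16 CPM, and capsule replicate 3 was again the highest for both. The granule genes were at or near 0 in the same 4 libraries: Epx at 0, 0.740, 0 and 0 CPM and Prg2 at 0, 0.345, 0.0646 and 0 CPM, with Ear1 and Ear6 no higher. The summed level of the 6 eosinophil genes was 20.5 to 63.6 CPM in capsule macrophages and 1.52 to 3.83 in kidney macrophages. The part of eosinophil RNA in the Ccr3 values of any library was not tested. The other eotaxin, Ccl11, was low in both, at 2.51, 1.77, 2.54 and 3.18 CPM in capsule macrophages and 0, 0.325, 0.283 and 0 CPM in kidney macrophages, with a log2 fold change of 4.29 (SE 0.94, adjusted p = 0.0028).

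Ccl8 measured 311, 236, 272 and 305 CPM in capsule macrophages and 2.32, 2.64, 2.51 and 4.11 CPM in kidney macrophages, with no overlap and a log2 fold change of 6.79 (SE 0.22, adjusted p = 5.8e-09). Its receptor Ccr8, carried by T cell subsets, did not reach 1 CPM in any of the 22 libraries. Ccl7, a Ccr2 ligand encoded in the same gene run as Ccl8, followed the same direction at 39.9, 30.5, 44.5 and 56.1 CPM against 2.32, 1.97, 2.70 and 3.51 CPM, and its log2 fold change was 4.23 (SE 0.25, adjusted p = 3.1e-07). Ccl12, which lies between them, was nearly level at 44, 25.1, 45.5 and 60.0 CPM and 27.9, 31, 29.6 and 40.9 CPM. The 2 groups overlapped for Ccl12, and the log2 fold change of 0.64 (adjusted p = 0.042) passed the threshold narrowly. Leaving out any 1 of capsule replicates 1, 3 and 4 or kidney replicates 1, 2 and 3 ended the Ccl12 call, with an adjusted p of up to 0.13.

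Pf4 measured 966, 905, 873 and 931 CPM in capsule macrophages and 47.3, 35.9, 48.3 and 40.9 CPM in kidney macrophages, a log2 fold change of 4.63 (SE 0.10, adjusted p = 6.3e-10). Platelets are the classical source of Pf4, and the platelet list of 9 genes, which includes the neighbouring chemokine Ppbp, summed to 31, 96.9, 66.5 and 16.1 CPM in the 4 capsule macrophage libraries. In the 4 kidney macrophage libraries the same list summed to 3.29 to 6.42 CPM. Young RCAM libraries had platelet sums of 66.6, 9.67, 6.57 and 10.8 CPM beside Pf4 levels of 692, 720.4, 802 and 811 CPM. The part of platelet RNA in the Pf4 values was not tested.

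Ccl9 was abundant in both macrophage groups and higher in the capsule, at 1539, 1425, 1254 and 977 CPM against 230.1, 191, 243 and 228 CPM, and the log2 fold change was 2.75 (SE 0.14, adjusted p = 1.1e-07). Ccr1, which binds Ccl9 as well as Ccl3 and Ccl5, went the same way at 192, 148, 240.2 and 266 CPM against 46.1, 45, 42.6 and 50.6 CPM, with a log2 fold change of 2.41 (SE 0.17, adjusted p = 1.4e-06). Cxcr3 measured 69.5, 57, 80.0 and 72.3 CPM and 30.4, 30.5, 31.4 and 32.9 CPM, again without overlap, and its log2 fold change was 1.36 (SE 0.11, adjusted p = 3.1e-06). All 3 genes were present in every macrophage library, so they differed in degree between the capsule and the kidney.

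Cxcl12, which holds Cxcr4-bearing cells in place and is a typical product of stromal cells, measured 124, 112, 128 and 118 CPM in capsule macrophages and 10.5, 9.28, 13.2 and 10.5 CPM in kidney macrophages (log2 fold change 3.68 (SE 0.11, adjusted p = 4.0e-09)). The 10 fibroblast genes moved in the same direction: they summed to 671 to 996 CPM in capsule macrophages, 12.3 to 18.3 in kidney macrophages and 8660.4 to 14251 in young capsule tissue, and 10 of 10 were called higher in capsule macrophages. Young capsule tissue held Cxcl12 at 157 to 178 CPM. The part of fibroblast RNA in the Cxcl12 and Ccl11 values was not tested.

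The Ccr4 ligands Ccl17 and Ccl22, known as products of dendritic cells, were also higher in the capsule. Ccl17 measured 18.6, 3.65, 12.4 and 9.08 CPM against 3.11, 3.04, 3.61 and 3.79 CPM, with a log2 fold change of 1.90 (SE 0.41, adjusted p = 0.0024). Ccl22 measured 22.9, 20.7, 43.9 and 48.4 CPM against 11.3, 13.1, 11.9 and 12.9 CPM, with a log2 fold change of 1.68 (SE 0.27, adjusted p = 3.9e-04). Capsule replicate 2 was the lowest of its group for both, and for Ccl17 it lay within the kidney range. The dendritic list of 10 genes, which includes Ccr7 and Xcr1, overlapped between the groups at 595 to 956 CPM and 632 to 795 CPM, and Ccr4 stayed below 1 CPM in all 22 libraries. Ccr7 and Xcr1 themselves were called higher in the capsule (log2 fold changes 1.71 and 1.31), and capsule replicate 2 was the lowest capsule library for both. Cxcl1 was low and slightly higher in the capsule (2.83, 2.10, 2.56 and 1.73 CPM against 1.49, 1.16, 1.73 and 1.66 CPM, log2 fold change 0.82, adjusted p = 0.032), and leaving out capsule replicate 1 or 3 or kidney replicate 1, 2 or 3 ended that call (adjusted p up to 0.085).

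Kidney macrophages stood higher for the inflammatory pair Ccl3 and Ccl4, which attract monocytes and T cells. Ccl3 measured 136, 135, 142 and 171 CPM in kidney macrophages and 22, 13.4, 17 and 25.6 CPM in capsule macrophages, a log2 fold change of -2.70 (SE 0.20, adjusted p = 1.6e-06) for capsule minus kidney. Ccl4 measured 251, 232, 262 and 267 CPM and 40.2, 22.6, 38.2 and 42.3 CPM, a log2 fold change of -2.61 (SE 0.18, adjusted p = 9.6e-07). For both genes the lowest kidney library was several-fold above the highest capsule library. A list of 19 NF-kB feedback genes summed to 2604 to 3150.4 CPM in kidney and 1974 to 2487 CPM in capsule macrophages, and 19 immediate early genes, which respond to tissue handling, summed to 5954 to 7961 and 7894 to 9852 CPM. The NF-kB feedback genes were split, with 7 called higher and 9 called lower in capsule macrophages and a median log2 fold change of -0.28.

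Cxcl16, a membrane-bound ligand of Cxcr6, measured 1019, 1052, 1096 and 1095 CPM in kidney macrophages and 218, 145, 184 and 226 CPM in capsule macrophages, a log2 fold change of -2.25 (SE 0.14, adjusted p = 4.1e-07). Cxcl14, an epithelial and stromal chemokine, measured 21, 17.1, 18.1 and 19.7 CPM in kidney and 5.06, 1.41, 3.42 and 2.52 CPM in capsule macrophages, a log2 fold change of -2.39 (SE 0.32, adjusted p = 1.3e-04). Kidney macrophage libraries also held more tubule RNA: 10 proximal tubule genes summed to 1579 to 2906 CPM there and to 17.6 to 145 CPM in capsule macrophages. The part of tubule RNA in the Cxcl14 and Cxcl16 values was not tested.

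Among receptors, Ccr2 measured 1215, 1146, 1160.5 and 1075 CPM in kidney macrophages and 508, 448, 606 and 446 CPM in capsule macrophages, a log2 fold change of -0.98 (SE 0.10, adjusted p = 1.4e-05). Cxcr4 measured 29.9, 33.5, 32.1 and 41.8 CPM and 9.18, 11, 11.7 and 6.69 CPM, a log2 fold change of -1.63 (SE 0.19, adjusted p = 4.4e-05). The groups did not overlap for either receptor. Ccr2, a receptor of Ccl7, and Cxcr4, a receptor of Cxcl12, were therefore higher in kidney macrophages, in which the ligands themselves were lower. This holds for the receptors named and not for every receptor of these ligands. Ackr3, which also binds Cxcl12, did not pass (log2 fold change -0.10, adjusted p = 0.75). The fractalkine receptor Cx3cr1, which is not among the 33 members, was also higher in kidney macrophages, with a log2 fold change of -1.65 (SE 0.14, adjusted p = 3.6e-06).

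Of the 25 tested members, 5 did not pass the threshold, and 3 of these are ligands that were well measured. Cxcl2 was at 25.5, 19.6, 22.1 and 25.6 CPM in capsule and 26.2, 25.2, 27.6 and 21.9 CPM in kidney macrophages, and its log2 fold change was 0.09 (SE 0.12, adjusted p = 0.53). Cxcl9, an interferon-induced Cxcr3 ligand, was at 18.6 to 46.1 CPM and 29 to 48.9 CPM, with a log2 fold change of 0.04 (SE 0.25, adjusted p = 0.9). Ccl5 was at 6.68 to 12.8 CPM and 7.28 to 17.3 CPM, with a log2 fold change of -0.13 (SE 0.31, adjusted p = 0.74). The other 2 members that did not pass were Ackr3 and Ccr6.

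**Figure D3:**
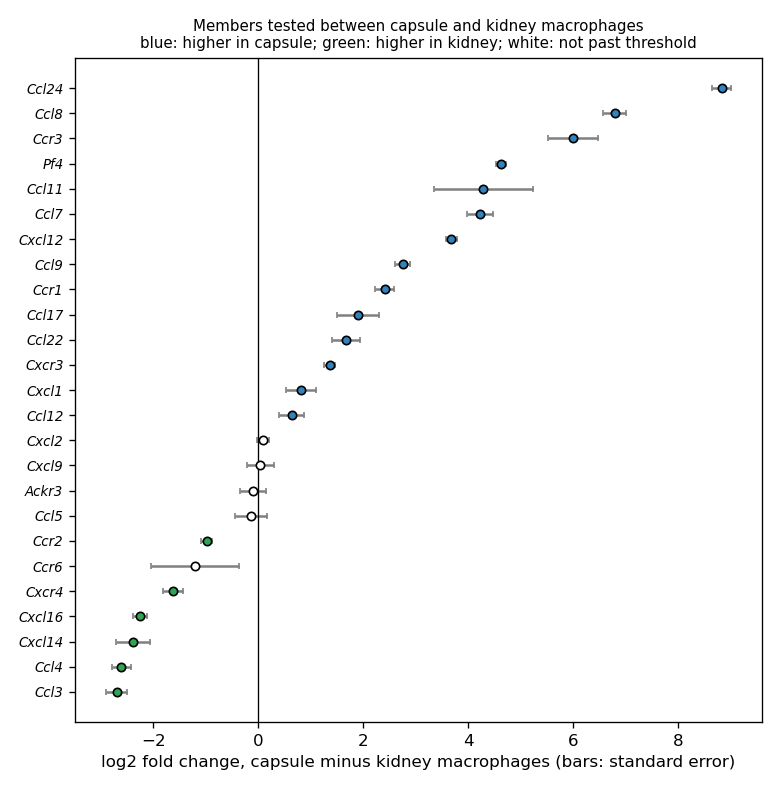
Log2 fold change with its standard error for the 25 members tested between capsule and kidney macrophages, sorted by size. Ccl24, Ccl8 and Ccr3 lead the 14 members higher in the capsule, and Ccl3, Ccl4 and Cxcl14 lead the 6 members higher in the kidney.

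Several of these genes lie side by side in clusters. Ccl2 (chr11:82035571-82037453), Ccl7 (chr11:82045712-82047525), Ccl11 (chr11:82057823-82062955), Ccl12 (chr11:82101845-82103400) and Ccl8 (chr11:82115185-82116799) form a run on chromosome 11 (GRCm38, GENCODE M21 annotation). A second run on the same chromosome holds Ccl5 (chr11:83525778-83530518), Ccl9 (chr11:83572919-83578636), Ccl6 (chr11:83587882-83593087), Ccl3 (chr11:83647844-83649355) and Ccl4 (chr11:83662584-83664683). Of the measured genes of the first run, Ccl7, Ccl11, Ccl12 and Ccl8 were all called higher in capsule macrophages. The second run was mixed, with Ccl9 higher and its neighbours Ccl3 and Ccl4 lower. The receptor genes Ccr1 (chr9:123962124-123968692), Ccr3 (chr9:124021972-124031689) and Ccr2 (chr9:124101950-124113557) are neighbours on chromosome 9, where Ccr1 and Ccr3 were higher and Ccr2 lower.

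The promoters of 4 genes with wide gaps between capsule and kidney macrophages are shown, 3 higher in the capsule (Ccl8, Pf4, Ccr3) and 1 higher in the kidney (Ccl3). Each line gives the 250 bases before the annotated RefSeq start on GRCm38.p6, 5′ to 3′ on the gene's strand, and capitals mark matches on either strand to the 4 motifs searched. Ccl8 lies at chr11:82114935-82115184 (plus strand), Pf4 at chr5:90772185-90772434 (plus strand), Ccr3 at chr9:124021721-124021970 (plus strand) and Ccl3 at chr11:83649379-83649628 (minus strand).
Ccl8: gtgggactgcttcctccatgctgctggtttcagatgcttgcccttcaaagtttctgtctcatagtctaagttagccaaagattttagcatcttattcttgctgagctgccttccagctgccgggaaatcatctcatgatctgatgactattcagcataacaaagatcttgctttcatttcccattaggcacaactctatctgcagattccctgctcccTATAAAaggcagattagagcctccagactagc
Pf4: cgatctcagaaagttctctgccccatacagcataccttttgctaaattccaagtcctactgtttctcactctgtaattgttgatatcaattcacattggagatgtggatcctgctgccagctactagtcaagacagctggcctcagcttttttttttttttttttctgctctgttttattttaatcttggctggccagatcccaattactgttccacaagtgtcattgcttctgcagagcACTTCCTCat
Ccr3: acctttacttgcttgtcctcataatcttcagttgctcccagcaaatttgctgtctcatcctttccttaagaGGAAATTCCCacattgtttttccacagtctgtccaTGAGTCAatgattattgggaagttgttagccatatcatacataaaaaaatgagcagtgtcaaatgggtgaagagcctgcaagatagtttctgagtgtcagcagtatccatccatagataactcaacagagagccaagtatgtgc
Ccl3: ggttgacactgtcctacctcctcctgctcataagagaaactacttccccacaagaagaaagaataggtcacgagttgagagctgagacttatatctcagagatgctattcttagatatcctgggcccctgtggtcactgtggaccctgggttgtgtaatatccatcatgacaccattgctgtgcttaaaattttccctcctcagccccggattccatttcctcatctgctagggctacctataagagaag
The motifs were the TATA box TATAAA, the AP-1 site TGACTCA, the PU.1 site GAGGAAGT (PU.1 is a macrophage lineage factor) and the NF-kB site by name, and no 2 matches printed here overlap. Counting bases back from the start, Ccl8 has a TATA box match at -32 and Pf4 a PU.1 match on the reverse strand at -10. Ccr3 has an AP-1 match at -144 and an NF-kB match at -179, both on the reverse strand, while Ccl3 has no match in this window. Of the 33 members, 25 are in the promoter table. A TATA match occurred in 7 of the 25 and in 12.4% of all 32851 promoters. An AP-1 match occurred in 2 (Ccr3 and Cxcl10) and in 4.46% of all, a PU.1 match in 2 (Cxcr3 and Pf4) and in 2.44%, and an NF-kB match in 7 (Ccl9, Ccr3, Ccr6, Cxcl1, Cxcl2, Cxcl3 and Cxcl10) and in 3.90%. A match to these letters is a description of the sequence and not a measured binding site.

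RCAM libraries were then set against whole capsule of the same age, to see which transcripts stood higher in the sorted cells than in the tissue around them. In young mice 29 members passed the filter, 17 were higher and 9 lower in RCAM, where 75.9% of all 17491 genes were called (35.2% higher and 40.6% lower). In aged mice 30 passed, 15 were higher and 11 lower, where 70.7% of all 17595 genes were called (32.2% higher and 38.5% lower). Without the 6 members that overlap an opposite-strand gene, the counts were 16 higher and 4 lower of 23 in young mice and 14 higher and 6 lower of 24 in aged mice, so 5 of the 9 lower members in young and 5 of the 11 in aged mice were overlapping genes. The median log2 fold change of all genes was -0.14 in young and -0.16 in aged mice, and with RLE scaling on the same genes -0.25 and -0.22. These values are therefore relative to a median that moves with the scaling. DESeq2 gave -0.39 and -0.37, but over more genes, because it was run without the filter on low counts. These comparisons share libraries with the age comparisons below.

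Of the 27 members without overlap, 14 were higher in RCAM at both ages: the ligands Ccl3, Ccl4, Ccl7, Ccl8, Ccl9, Ccl12, Ccl22, Ccl24, Cxcl2 and Pf4 and the receptors Ccr1, Ccr2, Ccr3 and Cxcr3. For Cxcl2, a neutrophil attractant, the 4 young RCAM libraries read 13.2, 27.1, 30.0 and 21.7 CPM and the 3 young capsule libraries 0.243, 0.188 and 0 CPM, and the log2 fold change was 7.57 (SE 0.60, adjusted p = 1.0e-05). Ccl4 read 29.6, 26.6, 38.3 and 20.7 CPM in young RCAM and 0.534, 0.0470 and 0.225 CPM in young capsule, a log2 fold change of 7.0 (SE 0.52, adjusted p = 6.7e-06). These 2 transcripts, with Ccl3 at 19.3, 11.8, 15.6 and 8.20 CPM against 0.291, 0.188 and 0.180 CPM, were below 1 CPM in every young capsule library. The 19 immediate early genes summed to 5715 to 7929 CPM in young RCAM and 727 to 1033 CPM in young capsule, and their part in the Cxcl2, Ccl3 and Ccl4 values was not tested.

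Ccl24 read 443, 654, 510.1 and 629 CPM in young RCAM and 29.4, 25.1 and 39.7 CPM in young capsule, a log2 fold change of 4.41 (SE 0.24, adjusted p = 1.7e-06). Ccr3 read 45.2, 46.7, 42.2 and 50.4 CPM and 0.729, 0.846 and 2.97 CPM, and its log2 fold change was 5.17 (SE 0.47, adjusted p = 2.2e-05). Pf4 and Ccr2 were also higher in young RCAM. Pf4 read 692, 720.4, 802 and 811 CPM there and 68.5, 59.7 and 114 CPM in young capsule, a log2 fold change of 3.49 (SE 0.25, adjusted p = 6.2e-06). Ccr2 read 598, 765, 609 and 502 CPM against 58.1, 37.6 and 74.1 CPM, with a log2 fold change of 3.71 (SE 0.27, adjusted p = 7.0e-06). For comparison, the macrophage genes Csf1r and Adgre1 went from 236 to 449.6 CPM and 83.1 to 192 CPM in young capsule to 7364 to 8816 and 1733 to 2073 CPM in young RCAM.

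The monocyte attractants Ccl7 and Ccl12 were higher in RCAM as well. Ccl7 read 45.7, 49, 54.3 and 48 CPM in young RCAM and 3.25, 2.82 and 6.31 CPM in young capsule, a log2 fold change of 3.83. Ccl12 read 31.1, 25.5, 44.9 and 32.9 CPM and 2.38, 1.17 and 3.83 CPM, a log2 fold change of 4.02. No library of one group reached the range of the other. Ccl9 read 1134, 1324, 1067 and 1100.3 CPM in young RCAM and 144, 90.9 and 207 CPM in young capsule (3.23), and its receptor Ccr1 read 151, 187, 185 and 173 CPM and 16.5, 10.2 and 21.2 CPM (3.71). Cxcr3 read 81.8, 66.8, 70.2 and 81.4 CPM and 8.26, 5.78 and 8.88 CPM (3.56), and Ccl22 read 36.7, 28.8, 30.1 and 13.2 CPM and 4.57, 3.24 and 5.77 CPM (2.85).

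Aged mice gave the same side for all 14. Ccl24 read 331, 223, 346 and 225 CPM in aged RCAM and 26.5, 24.8 and 28.7 CPM in aged capsule, a log2 fold change of 3.72. Ccr2 read 566, 669, 473 and 630.2 CPM and 49.1, 62.3 and 42.6 CPM, a log2 fold change of 3.83. Pf4 read 693, 701, 741 and 564 CPM and 82.7, 66.8 and 131 CPM, a log2 fold change of 3.17. The aged groups were as clearly apart as the young ones for these 3 genes. Ccl8 was the exception. Young RCAM read 378, 478, 514 and 495 CPM and young capsule 52.7, 27 and 115 CPM, without overlap, and the log2 fold change was 3.10. Aged RCAM read 591, 1080.4, 860.5 and 483 CPM and aged capsule 163, 281 and 614 CPM, the groups overlapped, and the log2 fold change was 1.41 (SE 0.48, adjusted p = 0.026). Leaving out capsule replicate 1 or 2 or RCAM replicate 2 or 3 ended that call, with an adjusted p of up to 0.081.

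Whole capsule stood higher at both ages for Ccl11, Cxcl14 and Ackr3. Ackr3, the scavenger of Cxcl12, read 233, 151 and 159 CPM in young capsule and 0.956, 3.33, 2.29 and 1.49 CPM in young RCAM, a log2 fold change of -6.23 (SE 0.40, adjusted p = 3.6e-06) for RCAM minus tissue. In aged mice it read 136, 165 and 182 CPM and 8.19, 5.45, 17.7 and 12.2 CPM, and the log2 fold change was -3.58 (SE 0.37, adjusted p = 4.8e-05). Ccl11 read 57.3, 54.2 and 46.9 CPM in young capsule and 1.10, 2.05, 1.45 and 0.845 CPM in young RCAM, a log2 fold change of -5.02 (SE 0.29, adjusted p = 2.2e-06). Cxcl14 read 11.6, 8.41 and 13.8 CPM and 5.60, 2.31, 4.30 and 1.55 CPM, a log2 fold change of -1.44 (SE 0.45, adjusted p = 0.017), and without young capsule replicate 3 that call was lost (adjusted p = 0.061). Fibroblast genes showed the same side, with 10 of 10 called lower in RCAM at each age.

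Cxcl12 was close to level, at 118, 113, 116 and 127 CPM in young RCAM and 178, 174 and 157 CPM in young capsule (log2 fold change -0.25, adjusted p = 0.04). That call was lost without any 1 of young capsule replicates 1 and 2 or of the 4 young RCAM libraries, with an adjusted p of up to 0.18, and in aged mice the adjusted p was 0.12. Ccl17 was called in young mice (2.08, adjusted p = 0.027), was lost without any 1 young capsule library or without RCAM replicate 3 (adjusted p up to 0.082), and in aged mice had an adjusted p of 0.087. Ccl5, Cxcl9 and Cxcr4 did not pass in young mice and were lower in aged RCAM than in aged capsule, with log2 fold changes of -1.94, -1.08 and -1.63. Of these 3, Ccl5 and Cxcr4 passed the interaction test described last and Cxcl9 did not (adjusted p = 0.11). Cxcl1 was called in young mice (4.12, adjusted p = 0.0015) and not in aged mice (1.18, adjusted p = 0.12), and the interaction did not pass for it either. Cxcl16, with partial overlap, was higher in RCAM at both ages (2.20 and 2.39), and Ccr9, almost wholly overlapped, was lower in both.

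Ligands and receptors met in the macrophage libraries for some pairs and not for others. Ccl24 with Ccr3, and Ccl9 with Ccr1, were each above 40 CPM for ligand and receptor in every capsule macrophage and young RCAM library. Ccl7 and Ccl12 were above 25 CPM beside Ccr2 above 400 CPM in the same libraries. Ccr8, Ccr4 and Cxcr2, the partners of Ccl8, of Ccl17 and Ccl22, and of Cxcl2, did not reach 1 CPM in any of the 22 libraries. Cxcl16 was abundant in every sorted library, while its partner Cxcr6 is one of the 4 genes that the sorted counts do not show. In tissue Cxcr6 read 6.56, 3.99 and 9.24 CPM in young and 15.2, 7.50 and 17.3 CPM in aged capsule.

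RCAM libraries were also compared between aged and young mice. Of 25 members tested, 4 were higher and 3 lower in aged RCAM, where 4.80% of all 15182 genes were called, 3.43% higher and 1.38% lower (edgeR's quasi-likelihood test). The members' median log2 fold change was 0.34, against -0.01 for all genes. The 3 lower members were Ccl24, its receptor Ccr3, and Ccr1, and the 4 higher members were Ccl11, Ackr3, Cxcl16 and Ccr6. Of these, Ccr6 passed the filter on low counts only through its aged libraries.

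Ccl24 measured 443, 654, 510.1 and 629 CPM in young RCAM and 331, 223, 346 and 225 CPM in aged RCAM. All aged libraries lay below all young ones, and the log2 fold change was -1.01 (SE 0.17, adjusted p = 0.01). Ccr3 measured 45.2, 46.7, 42.2 and 50.4 CPM in young and 13.9, 32.5, 17.6 and 25.3 CPM in aged RCAM, again without overlap, with a log2 fold change of -1.07 (SE 0.23, adjusted p = 0.029). Ccr1 measured 151, 187, 185 and 173 CPM in young and 137, 81, 79.3 and 103 CPM in aged RCAM, without overlap, with a log2 fold change of -0.83 (SE 0.15, adjusted p = 0.015). Ccl24 and its receptor thus fell together, while the other eotaxin, Ccl11, rose. Siglecf and Il5ra of the eosinophil list read 17.5, 16.1, 14.4 and 12 and 4.30, 4.17, 2.41 and 5.25 CPM in young and 5.77, 9.31, 4.03 and 9.80 and 0.855, 4.87, 1.18 and 2.61 CPM in aged RCAM, and Epx was at 0 in all 8. F13a1, which takes up most of the monocyte list's sum, was also lower, at 6147, 4851, 5275 and 5876 CPM in young and 3734, 3499.6, 4166 and 2832 CPM in aged RCAM. The other 7 genes of that list summed to 57.5, 77.4, 76.3 and 54.4 CPM in young and 66.2, 65.2, 76.8 and 107 CPM in aged RCAM, where the groups overlapped and the highest library was an aged one. Of these 3 calls, only that of Ccr3 was lost when 1 library was left out, which happened without any 1 of the 4 young libraries or without aged replicate 3 or 4, with an adjusted p of up to 0.079.

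Ccl11 measured 1.10, 2.05, 1.45 and 0.845 CPM in young RCAM and 8.87, 6.01, 15.5 and 11.9 CPM in aged RCAM, a log2 fold change of 2.93 (SE 0.35, adjusted p = 0.0023). Ackr3 measured 0.956, 3.33, 2.29 and 1.49 CPM in young and 8.19, 5.45, 17.7 and 12.2 CPM in aged RCAM, a log2 fold change of 2.41 (SE 0.44, adjusted p = 0.014). Aged replicate 3 was the highest library for both, followed by aged replicate 4. The 10 fibroblast genes summed to 696, 593, 809 and 797 CPM in young and 1402, 1010.3, 2458 and 2867 CPM in aged RCAM, with aged replicates 3 and 4 highest, and 6 of 10 were called higher with a median log2 fold change of 1.48. Both members were far higher in whole capsule than in RCAM. The part of fibroblast RNA in the 2 age differences was not tested. Here as in every bulk comparison, a change in the number of cells of one type and a change in RNA per cell cannot be told apart.

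Cxcl16 measured 168, 148, 181 and 119.6 CPM in young and 240.1, 219.8, 235 and 261 CPM in aged RCAM, without overlap, and its log2 fold change was 0.61 (SE 0.12, adjusted p = 0.017). Without young replicate 2 that call was lost (adjusted p up to 0.051). Ccr6, the receptor of Ccl20 on B and T cell subsets, had 0 counts in all 4 young libraries and 0.235, 0.328, 0.645 and 0.392 CPM in the aged ones. Against the level that 3 counts would have given in the shallowest young library (0.0602 CPM), the aged mean of 0.400 CPM was at least 6.65-fold higher. The Ccr6 call (adjusted p = 0.0099) is given as a description only, because Ccr6 passed the filter on low counts only through its aged libraries. The 13 B and plasma cell genes summed to 1316 to 1501 CPM in young and 1651 to 2333 CPM in aged RCAM, and the 15 T cell genes to 35.4 to 50.3 and 57.4 to 81.2 CPM, both without overlap. Only 9 of the 15 T cell genes passed the filter, with 7 positive and 2 negative log2 fold changes, and 0 were called. The plasma cell gene Jchain read 0, 0, 0.235 and 0 CPM in young and 102, 234, 45.9 and 33 CPM in aged RCAM, while the B cell marker Ms4a1 was at 0 in all 8 libraries. The part of lymphocyte RNA in the Ccr6 value was not tested.

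**Figure D4:**
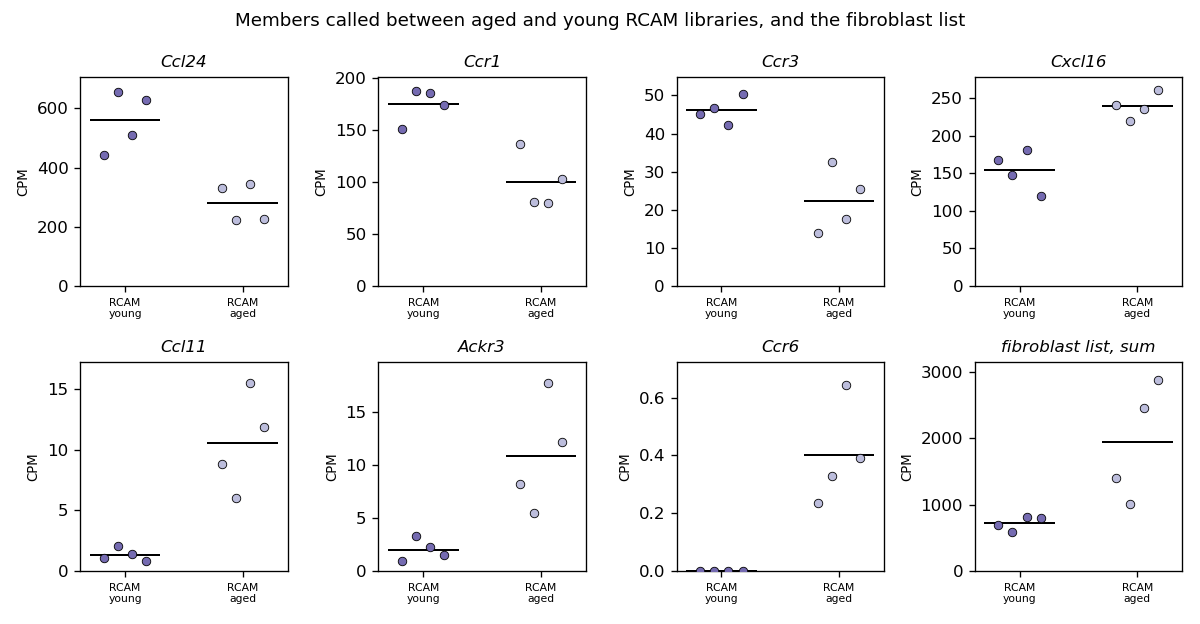
CPM of the 7 members called between aged and young RCAM and the summed CPM of 10 fibroblast genes, with 1 point per library, a line at the group mean and axes that start at 0. Ccl24, Ccr1 and Ccr3 lie lower in aged libraries, and for Ccl11, Ackr3 and the fibroblast sum aged replicates 3 and 4 are the highest.

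The most abundant of the remaining members did not pass. Ccl8 measured 378, 478, 514 and 495 CPM in young and 591, 1080.4, 860.5 and 483 CPM in aged RCAM (log2 fold change 0.68 (SE 0.22, adjusted p = 0.13)), and aged replicate 2 was more than 2 times aged replicate 4. Pf4 measured 692 to 811 CPM in young and 564 to 741 CPM in aged RCAM (-0.19 (SE 0.09, adjusted p = 0.35)), Ccl9 1067 to 1324 and 848 to 1052 CPM (-0.31 (SE 0.09, adjusted p = 0.097)), and Ccr2 502 to 765 and 473 to 669 CPM (-0.10 (SE 0.14, adjusted p = 0.8)). Ccl9 was lower in all 4 aged libraries than in all 4 young ones without passing the adjusted threshold. Cxcl1 was higher in all 4 aged libraries, at 2.39, 2.20, 2.11 and 3.01 CPM against 1.05, 1.14, 1.43 and 1.10 CPM, and narrowly missed the threshold (1.02 (SE 0.25, adjusted p = 0.051)). The NF-kB feedback genes summed to 1673 to 1841 CPM in young and 2149 to 2634 CPM in aged RCAM.

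In whole capsule no member passed the threshold between aged and young mice. Of 28 members tested 0 were called by edgeR's quasi-likelihood test, where 0.239% of all 16350 genes were called (0.153% higher and 0.0856% lower). An unadjusted p under 0.05 in that test was found for 10 members and for 3685 of all 16350 genes. DESeq2, run without the filter on low counts, called 9 of 33 members, all higher in aged capsule. Over all 25123 genes it called 747 higher and 1064 lower. The log2 fold change was positive for 23 of the 28, with a median of 0.62 against 0.03 for all genes. The count depended on the model and on single libraries. Without young replicate 2 edgeR called 2 members (Ccl5 and Cxcr4), without aged replicate 2 it called 1 (Ccl3), and without both it called 3 (Ccl3, Ccl5 and Cxcr4). Replicate 2 of each age held adrenal transcripts, with 10 adrenal genes summing to 17.6, 192 and 11 CPM in the young and 24.4, 6129.7 and 15 CPM in the aged libraries. Kidney tubule transcripts were lower in aged capsule, with 10 proximal tubule genes summing to 6735 to 26582 CPM in young and 1342 to 6524 CPM in aged capsule, and their part in the member values was not tested.

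Cxcr4, carried by most lymphocytes, measured 6.07, 7.33 and 7.39 CPM in young and 20.2, 36.1 and 36.5 CPM in aged capsule. The ranges did not overlap, and the log2 fold change was 2.05 (SE 0.30, unadjusted p = 1.4e-04, adjusted p = 0.0505, just above the threshold). Ccl5, a product of T and natural killer cells, measured 8.84, 4.37 and 10.1 CPM in young and 23.3, 37 and 31.9 CPM in aged capsule, with a log2 fold change of 1.89 (SE 0.34, adjusted p = 0.067). The 15 T cell genes summed to 33 to 55.8 CPM in young and 112 to 139 CPM in aged capsule, and 11 cytotoxic cell genes to 11.1 to 27.7 and 43.4 to 46.7 CPM. The 13 B and plasma cell genes showed the widest gap of these lists, with sums of 490.4 to 520.2 CPM in young and 3862 to 5745 CPM in aged capsule. All 3 lists were without overlap between the ages, as were both members. The part of lymphocyte number in them was not tested.

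Among the monocyte attractants, Ccl2 measured 3.98, 1.93 and 4.69 CPM in young and 11.1, 5.46 and 31 CPM in aged capsule (2.08 (SE 0.65, adjusted p = 0.12)). Ccl7 measured 3.25, 2.82 and 6.31 and 7.10, 9.05 and 30.6 CPM (1.83 (SE 0.62, adjusted p = 0.14)). Ccl8 measured 52.7, 27 and 115 and 163, 281 and 614 CPM (2.36 (SE 0.65, adjusted p = 0.11)). None overlapped between the ages, and aged replicate 3 was the highest library for all 3, for Ccl6 (282, 351 and 732 CPM in aged capsule) and for Ccl9 (157, 165 and 381 CPM). The same library had the highest sum of the 15 macrophage genes, at 6389, 4752 and 11277 CPM in the aged and 3451, 2311 and 4548 CPM in the young libraries. Ccl3 read 0.291, 0.188 and 0.180 and 3.01, 0.482 and 3.73 CPM (3.32 (SE 0.81, adjusted p = 0.092)), with aged replicate 2 close to the young level, and Ccl4 read 0.534, 0.0470 and 0.225 and 1.85, 2.14 and 3.29 CPM (3.07 (SE 0.70, adjusted p = 0.088)).

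The members that were high in capsule macrophages relative to kidney macrophages were not all on the positive side in aged tissue. Ccl24 measured 29.4, 25.1 and 39.7 CPM in young and 26.5, 24.8 and 28.7 CPM in aged capsule (-0.35 (SE 0.21, adjusted p = 0.35)). Pf4 measured 59.7 to 114 and 66.8 to 131 CPM (0.11 (SE 0.34, adjusted p = 0.88)), and Ccr2 37.6 to 74.1 and 42.6 to 62.3 CPM (-0.25 (SE 0.26, adjusted p = 0.6)). The stromal members Cxcl12 and Ackr3 measured 157 to 178 and 151 to 233 CPM in young and 176 to 329.7 and 136 to 182 CPM in aged capsule. Neither passed (0.56 (SE 0.26, adjusted p = 0.26) and -0.27 (SE 0.24, adjusted p = 0.55)).

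Whether age differences differed between RCAM and whole capsule was tested directly, as an interaction over the 4 groups. Of 31 members tested, 4 of which have no RCAM counts, 6 passed, 2 with a positive and 4 with a negative value, where 5.05% of all 18856 genes did (3.12% positive and 1.93% negative). Ccl11 and Ackr3 had the larger age difference in RCAM, by 2.31 (SE 0.44, adjusted p = 0.02) and 2.72 (SE 0.56, adjusted p = 0.023) on the log2 scale. Ccl4, Ccl5, Cxcr4 and Cxcr3 had the larger age difference in tissue, with interaction values of -2.68 (SE 0.54, adjusted p = 0.022), -2.22 (SE 0.58, adjusted p = 0.045), -1.42 (SE 0.35, adjusted p = 0.037) and -0.89 (SE 0.22, adjusted p = 0.035). For Ccl5 the 2 differences had opposite signs, 1.89 in tissue and -0.36 in RCAM, and neither passed on its own. Cxcr3 measured 8.26, 5.78 and 8.88 CPM in young and 16.7, 12.8 and 12.8 CPM in aged capsule, against 81.8, 66.8, 70.2 and 81.4 and 75.8, 68.7, 71.3 and 56.5 CPM in RCAM. Cxcl1 did not pass (-2.89 (SE 1.02, adjusted p = 0.11)), nor did Ccl3 (-2.68, adjusted p = 0.067).

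Only the Ccl4 call held when each of the 14 libraries was left out in turn. The Ccl11 call was lost without aged capsule replicate 1 (adjusted p = 0.052), and the Ackr3 call without young or aged capsule replicate 1 (adjusted p up to 0.064). The Cxcr3 call was lost without young or aged capsule replicate 1, young RCAM replicate 1 or 4, or aged RCAM replicate 3 or 4 (adjusted p up to 0.072). The Ccl5 call was lost without any 1 library other than young RCAM replicate 4, and the Cxcr4 call without any 1 other than young capsule replicate 2, aged capsule replicate 1 and young RCAM replicate 1, with adjusted p-values of up to 0.083 and 0.085.

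**Figure D5:**
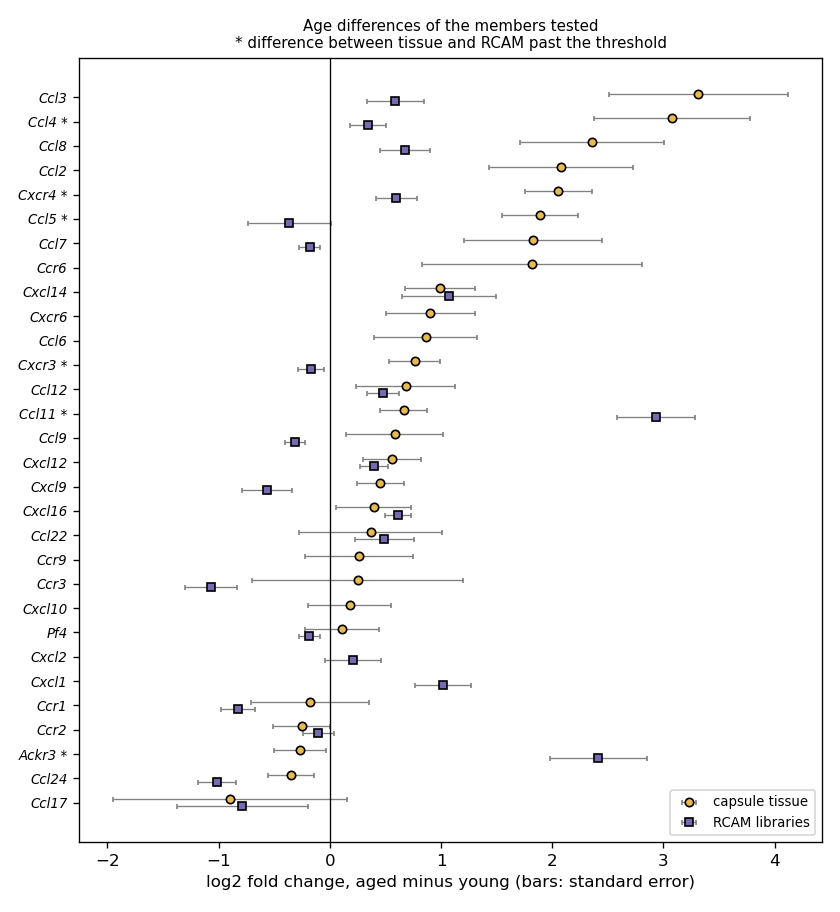
Log2 fold change of aged minus young with its standard error for each member tested in whole capsule (circles) and in RCAM (squares), with an asterisk where the difference between the 2 passed the threshold. Ccl3, Ccl4, Ccl8, Ccl2, Cxcr4 and Ccl5 lie furthest to the right in tissue, and Ccl11 and Ackr3 in RCAM. Ccr6 in RCAM is left out because its young libraries are all at 0.

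The remaining chemokine genes of the genome were measured as a background list. Between capsule and kidney macrophages 4 of 6 tested ligands and 5 of 8 tested receptors outside the 33 passed, where 55.4% of all 15701 genes did. Cxcl13, which draws B cells through Cxcr5, measured 21.9, 15.5, 12.9 and 3.48 CPM in capsule and 0, 0, 0.0314 and 0.221 CPM in kidney macrophages (7.75 (SE 0.88, adjusted p = 3.7e-05)). Ppbp, a platelet chemokine, was also higher in the capsule (4.62 (SE 0.55, adjusted p = 5.2e-05)), as were Ccr7 (1.71) and Xcr1 (1.31), receptors of migrating and cross-presenting dendritic cells. Ccl27a (-2.31), Ccl25 (-1.10) and Ccrl2 (-0.92) were lower. Between aged and young RCAM 1 of 6 ligands and 0 of 8 receptors passed, where 4.80% of all 15182 genes did. The ligand was Cxcl13, which measured 15.3, 5.22, 36.4 and 3.93 CPM in young and 752, 105, 109 and 133 CPM in aged RCAM (4.16 (SE 0.89, adjusted p = 0.027)), with aged replicate 1 far above the rest. Cxcr5 did not reach 3 CPM in any sorted library and measured 0.486, 1.08 and 1.62 CPM in young and 7.10, 6.99 and 6.83 CPM in aged capsule (2.58 (SE 0.44, adjusted p = 0.064)). Cxcl11, Xcl1 and Ackr4 had 0 counts in all 16 sorted libraries and, like the 4 members above, have every exon base inside an opposite-strand gene, while Ccr10 has the same overlap and was not at 0 in every one.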

How the data were processed

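The deposited files hold whole-number read counts per gene for each of 22 mouse libraries, made by the authors on genome build GRCm38 per the submitters' processing notes. No source used here names the aligner, the counting program or its use of strand. Reads were single-end, per the labels' protocols. Gene positions and overlaps came from GENCODE M21, which held 52489 of the 52636 gene identifiers.

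CPM were computed from each library's total. Groups were compared on counts with edgeR 4.0.16 (TMM scaling, filterByExpr, quasi-likelihood test, Benjamini-Hochberg over all genes tested, threshold 0.05), fitted on the groups of each comparison only. The interaction was fitted on all 4 groups. The standard error is the log2 fold change divided by the root of F. The scripts were tested on simulated data. Alternatives were RLE scaling, DESeq2 1.42.0 without the filter on low counts, edgeR without that filter, a replicate block and leaving out each library. Fold changes are relative to the scaling. A count without the members that overlap an opposite-strand gene was added after the data were seen, and a fit without replicate 2 of both capsule groups was also made.

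Members, gene lists and tests were chosen with earlier results of these data known. Members past the threshold were named, up to 20 per comparison by size of change. Promoter sequences came from RefSeq (GRCm38.p6).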

Additional observations from a re-analysis of the deposited data

Results flagged for a closer look

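The age difference of 6 members differed between RCAM and whole capsule by the interaction test, and each stands out for that reason. The interaction values were -2.68 for Ccl4, -2.22 for Ccl5, -1.42 for Cxcr4, -0.89 for Cxcr3, 2.31 for Ccl11 and 2.72 for Ackr3 on the log2 scale. In 1 of 95 groups of 4 libraries checked, 1 library stood apart from the other 3 by Dixon's criterion: Ccl7 in aged RCAM replicate 3, at 51.3 CPM where the 4 libraries read 42.4, 41.3, 51.3 and 41.4 CPM. Chance flags about 1 in 20 such groups.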

How the results depend on the processing

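No called member of any comparison changed direction under any alternative in which it was tested. Of the members tested, called or not, the sign changed under at least 1 alternative for 3 of 25 between capsule and kidney macrophages, 2 of 29 and 0 of 30 between RCAM and capsule (young and aged), 2 of 25 between aged and young RCAM, 7 of 28 between aged and young capsule and 12 of 31 in the interaction. Of the members called, 18 of 20 kept their call under every alternative between capsule and kidney macrophages, 2 of 7 between aged and young RCAM, and 1 of 6 in the interaction. In capsule tissue the 0 members called higher in aged mice became 9 with DESeq2, 6 without the filter and 9 with the replicate block, and 0 to 2 with 1 library left out, or 3 without replicate 2 of both ages. In RCAM, DESeq2 called 9 higher with age and the replicate block 2, with 1 lower. Under the block the RCAM age calls of Ccl24 (adjusted p = 0.060), Cxcl16 (0.061), Ccr1 (0.053) and Ccr6 (0.094) were not made, and those of Ccl11, Ackr3 and Ccr3 were. Elsewhere the block ended the calls of Cxcl1 (capsule against kidney), Cxcl12 (young RCAM against capsule) and Ccl5 (interaction). Without the overlapping members, 4 (young) and 6 (aged) were lower in RCAM than in tissue. The interaction gave 11 with DESeq2 and 2 to 6 with 1 library left out. Over all genes, aged capsule had 25 higher and 14 lower, against 747 and 1064 with DESeq2, 403 and 692 without the filter and 943 and 1253 with the block. Aged RCAM had 520 and 209, against 1030 and 520 with DESeq2 and 280 and 56 with the block. The cause of these shifts was not tested. Same-numbered libraries deviated together only in capsule tissue (r of 0.0986, 0.353 and 0.310), where each library correlated best with its own number, and one value fell under 0.1, so the numbers were not taken to pair the libraries. Elsewhere r lay between -0.108 and 0.0571. At these depths 3 counts correspond to at most 0.146 CPM.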
